A study of Mus musculus with 4 samples.

Results

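The expression of the matrix metalloproteinases (MMPs) and of their tissue inhibitors (TIMPs) was examined in cultured mouse articular chondrocytes. The members were the 10 rows of the deposited tables whose gene symbol is Mmp2, Mmp3, Mmp9, Mmp13, Mmp14, Mmp16, Mmp23, Timp1, Timp2 or Timp3, out of 55141 genes. They comprise 7 proteases and 3 inhibitors. The Mmp and Timp genes of the table numbered 27, so 17 of them lay outside these members.

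MMPs are zinc-dependent enzymes that are made as inactive precursors and, once activated, cleave collagens and other matrix proteins. TIMPs are small secreted proteins that bind the active site of MMPs and block it. In cartilage, MMP13 is the main collagenase that cuts type II collagen. It is made by hypertrophic chondrocytes of the growth plate and by chondrocytes of osteoarthritic joints.

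Chondrocytes were isolated with collagenase from femoral heads of mice on a C57BL/6 background at 3 weeks of age and cultured with serum. There were 4 libraries, 1 per condition: wild type (WT), mice with Col2a1-cre and floxed miR-23a/b clusters (flox/flox; Cart-miR-23clus KO), miR-26a -/- (miR-26a KO), and miR-26a -/- cells transfected with a miR-26a mimic after isolation (miR-26a KO + mimic). In Cart-miR-23clus KO the clusters are removed by a Cre under the Col2a1 promoter, so only cells that have used this promoter lose them. The first library is labelled wild type. The study names these cells both wild type and Control in its results, and Control in its methods. Control is its name for floxed mice without Cre. Which of these the library holds cannot be told apart here. The labels name a negative control siRNA, and whether the miR-26a KO cells sequenced had received it is not stated. The mimic and the transfection itself therefore cannot be told apart in the comparison of these libraries. With 1 library per condition no difference below could be checked against replicates, and p-values are not given.

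The libraries held from 1328042 to 1498579 reads on genes. A fixed floor of 3 reads corresponds to 2.00 to 2.26 RPM, the reads scaled to a common library total. For a count of 0 (Mmp9) the upper 95% limit was 2.46 RPM in WT and 2.78 RPM in Cart-miR-23clus KO. Levels are given in TPM, for which the authors divided the reads of a gene by a gene length and brought each library to the same sum. Folds are ratios of TPM, with exact Clopper-Pearson 95% intervals on the reads, which cover counting error only. A gene was called when its ratio was above 2 or below 0.5. In these bulk libraries a change in the share of cells of one type and a change in RNA per cell cannot be told apart. Of the 10 chondrocyte markers examined, all had reads in every library, and their sum was highest in WT, at 15208 TPM against 10492 to 10872 in the other 3. Not every marker followed the sum: Comp was lowest in WT, Matn3 was highest in Cart-miR-23clus KO, and Sox9 lay between 463 and 500 TPM. WT was also the lowest library for Timp1, Timp2 and Timp3 and the highest for Mmp2 and Mmp14, and the part of these markers in those values was not tested. The 8 neutrophil markers summed to at most 2 reads per library, with Elane, Mpo, Ly6g, Ngp and Ltf at 0 in every library.

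The miRNAs removed or added in these cells act by pairing of their seed (bases 2 to 8, in capitals) with the 3′ UTR of an mRNA. The mature sequences of RefSeq (GRCm38.p6) are shown 5′ to 3′, since they define the matches searched in the members. The sense strand of the transfected mimic equals mmu-miR-26a-5p, which both Mir26a loci encode. The seed of miR-27a and miR-27b is the same. The mature miR-23b-3p was named in the clusters but had no entry in the table used.
mmu-miR-26a-5p: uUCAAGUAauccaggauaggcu
mmu-miR-23a-3p: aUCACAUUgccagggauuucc
mmu-miR-27a-3p: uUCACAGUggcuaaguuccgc
mmu-miR-27b-3p: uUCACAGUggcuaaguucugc
mmu-miR-24-3p: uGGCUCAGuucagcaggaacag

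Seed matches were found in the longest annotated 3′ UTR of 4 of the 10 members (GENCODE M21, GRCm38). They are printed on the strand of the mRNA with the match in capitals, because they show which members hold an exact match to a seed. Other kinds of site, other UTR forms and coding sequences were not searched.
Mmp14, miR-26a-5p match, chr14:54444037-54444049: tgatgTACTTGAg
Mmp14, miR-23a-3p match, chr14:54444775-54444796: catgagcaggactaAATGTGAt
Mmp16, miR-26a-5p match, chr4:18118413-18118434: aaaaaaacctcaaaTACTTGAa
Mmp16, miR-23a-3p match, chr4:18118816-18118837: cattcatgattttgAATGTGAg
Mmp16, miR-24-3p match, chr4:18116565-18116586: tttccttctgaaatCTGAGCCc
Timp2, miR-24-3p match, chr11:118303045-118303066: aatggaagccctccCTGAGCCg
Timp3, miR-23a-3p match, chr10:86348972-86348993: tctgtctgggagatAATGTGAg

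The Mmp16 match to miR-26a is followed by an A, opposite the first base of the miRNA. The match to miR-26a (tacttga) was held by 2 members, and by 9.84% of the 20655 genes with a 3′ UTR of at least 50 bases. The match to miR-23 (aatgtga) was held by 3 members against 15.4% of those genes, and the match to miR-24 (ctgagcc) by 2 against 16.5%. The match to miR-27 (actgtga) was held by 0 members against 16.3%. No match was in the 3′ UTRs of Mmp13 (1213 bases), Mmp2 (755 bases), Mmp9 (944 bases), Mmp3 (285 bases), Mmp23 (54 bases) or Timp1 (103 bases). A match is a description of the letters in the annotated UTR and says nothing of use in these cells.

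**Figure D1:**
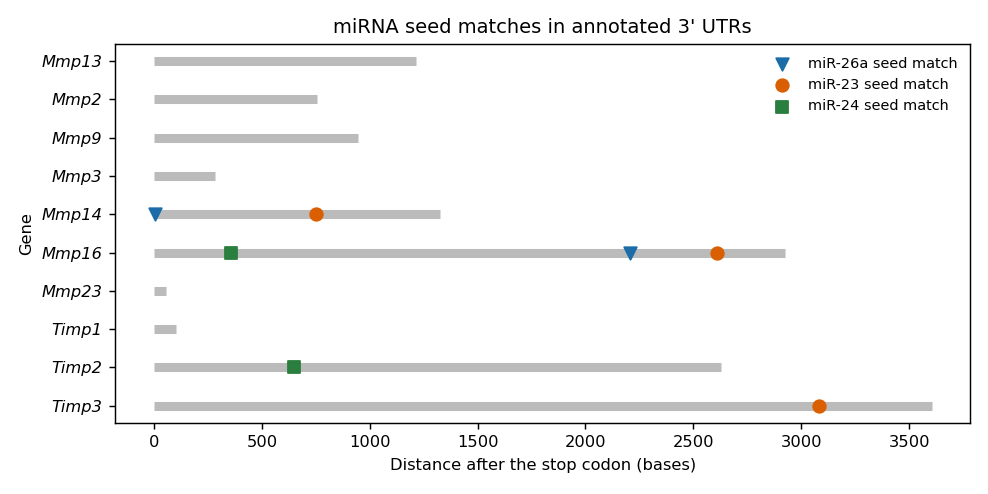
Annotated 3′ UTRs of the 10 members (grey bars, length in bases after the stop codon) with the seed matches to miR-26a (triangles), miR-23 (circles) and miR-24 (squares). Matches lie in Mmp14, Mmp16, Timp2 and Timp3, and the UTRs of the other members hold none.

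Across the members, the TIMPs were the most abundant. In WT the order by TPM was Timp3 (3202), Timp2 (887), Timp1 (621), Mmp13 (507), Mmp14 (178), Mmp2 (162), Mmp23 (44.1), Mmp3 (9.03) and Mmp16 (5.24), and Mmp9 was at 0. Timp3 ranked 35 among all genes of that library by TPM. Reads of a 3′ end library do not depend on gene length, and by RPM Mmp13 (944) stood above Timp1 (382), and Mmp2 (348, 95% interval 319 to 380) and Mmp14 (322, 294 to 352) could not be ordered. Mmp3 and Mmp16, with 17 and 19 reads in WT, could not be ordered at this depth either.

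**Figure D2:**
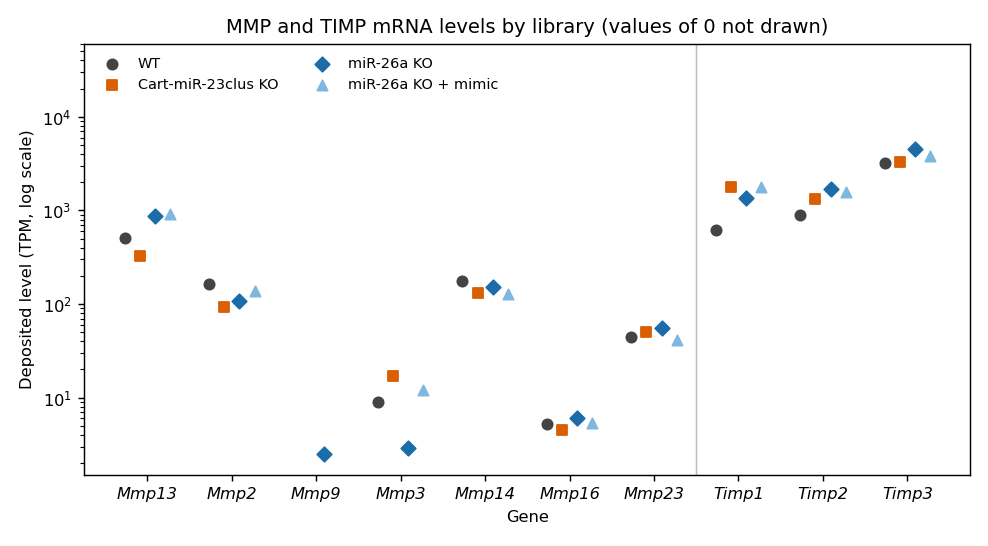
Deposited level in TPM (log axis) of each member in the 4 libraries, 1 point per library. The 3 Timp genes lie above 600 TPM in every library, Mmp13 between 330 and 925, and Mmp3 varies most among the members with a value in every library.

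Mmp13 (ENSMUSG00000050578, chr9:7272514-7283331, plus strand) had 507 TPM for WT, 330 for Cart-miR-23clus KO, 871 for miR-26a KO and 925 for miR-26a KO + mimic. It was thus lowest in Cart-miR-23clus KO and highest in the pair of miR-26a -/- libraries, which lay close to each other. The ratio to WT was 0.650 (0.596 to 0.709) in Cart-miR-23clus KO and 1.72 (1.61 to 1.84) in miR-26a KO, and both ratios share the WT library. The mimic library stood at 1.06 (1.00 to 1.12) times miR-26a KO. Between the knockouts, Cart-miR-23clus KO had 0.378 (0.349 to 0.410) times the level of miR-26a KO, a ratio below 0.5 that does not use the WT library.

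Mmp2 and Mmp9 are the gelatinases, which digest denatured collagen and basement membrane collagen. Mmp2 (ENSMUSG00000031740, chr8:92827291-92853420, plus strand) had 162 TPM for WT, 92.8 for Cart-miR-23clus KO, 108 for miR-26a KO and 136 for miR-26a KO + mimic. WT was highest, and both knockouts were lower, with ratios of 0.572 (0.492 to 0.663) and 0.667 (0.578 to 0.768). In the mimic library Mmp2 was 1.26 (1.09 to 1.46) times miR-26a KO. Between the knockouts the ratio was 0.857 (0.726 to 1.01), an interval that includes 1.

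Mmp9 (ENSMUSG00000017737, chr2:164940780-164955850, plus strand), which osteoclasts and neutrophils make in large amounts, had 1 read, in miR-26a KO, and 0 in the other libraries. That read corresponds to 2.53 TPM, so neither presence nor a difference between libraries was detectable for Mmp9 at this depth. No ratio was formed for it, and the counts below cover the other 9 members.

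Mmp3, stromelysin 1, cleaves proteoglycans and activates other MMP precursors. Mmp3 (ENSMUSG00000043613, chr9:7445822-7455975, plus strand) had 9.03 TPM (17 reads) for WT, 17.0 (29 reads) for Cart-miR-23clus KO, 2.92 (5 reads) for miR-26a KO and 12.0 (22 reads) for miR-26a KO + mimic. It was therefore low in 1 library, miR-26a KO, and the other 3 libraries lay within the range of 17 to 29 reads. The ratio of Cart-miR-23clus KO to WT was 1.88 (0.998 to 3.64), and that of miR-26a KO to WT was 0.323 (0.0932 to 0.912). The ratio to miR-26a KO was 4.11 (1.52 to 13.9) in the mimic library and 5.81 (2.23 to 19.2) in Cart-miR-23clus KO. The last 3 ratios all rest on the 5 reads of the miR-26a KO library.

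Mmp14 and Mmp16 are anchored in the cell membrane by a transmembrane segment, and MMP14 activates the precursor of MMP2 together with TIMP2. Mmp14 (ENSMUSG00000000957, chr14:54431612-54445364, plus strand) had 178 TPM for WT, 132 for Cart-miR-23clus KO, 151 for miR-26a KO and 127 for miR-26a KO + mimic. WT was the highest of 4 close values. The ratio to WT was 0.741 (0.642 to 0.854) in Cart-miR-23clus KO and 0.848 (0.739 to 0.973) in miR-26a KO. The mimic library stood at 0.839 (0.722 to 0.975) times miR-26a KO, and Mmp14 holds the miR-26a match shown above, which begins at base 6 of the 3′ UTR, counted from the first base after the stop codon.

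Mmp16 (ENSMUSG00000028226, chr4:17852893-18119145, plus strand) had 19 reads for WT, 15 for Cart-miR-23clus KO, 20 for miR-26a KO and 19 for miR-26a KO + mimic, or 4.56 to 6.06 TPM. Its ratios to WT were 0.869 (0.411 to 1.81) and 1.16 (0.586 to 2.29). The mimic library had 0.888 (0.448 to 1.75) times the level of miR-26a KO. The 3 matches in its 3′ UTR, to miR-26a, miR-23 and miR-24, thus stand beside a gene whose intervals against WT ran from 0.411 to 2.29.

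Mmp23 (ENSMUSG00000029061, chr4:155650655-155653384, minus strand), a membrane-anchored MMP with an unusual domain structure, had 66 reads for WT, 69 for Cart-miR-23clus KO, 75 for miR-26a KO and 60 for miR-26a KO + mimic. The libraries lay between 41.1 and 55.0 TPM, and all of the ratios formed had an interval that includes 1. The ratio to WT was 1.15 (0.809 to 1.64) in Cart-miR-23clus KO and 1.25 (0.884 to 1.76) in miR-26a KO, and that of the mimic library to miR-26a KO was 0.747 (0.523 to 1.06).

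Timp1 is an inducible, soluble inhibitor of most MMPs. Timp1 (ENSMUSG00000001131, chrX:20870166-20874735, plus strand) had 621 TPM for WT, 1797 for Cart-miR-23clus KO, 1354 for miR-26a KO and 1779 for miR-26a KO + mimic. WT was the lowest library by more than 2-fold, and the other 3 lay within 1354 to 1797 TPM. The ratio to WT was 2.89 (2.63 to 3.19) in Cart-miR-23clus KO and 2.18 (1.97 to 2.41) in miR-26a KO, the same WT library serving both. The mimic library had 1.31 (1.22 to 1.42) times the level of miR-26a KO. Timp1 lies within Syn1 on the opposite strand, which had at most 3 reads in the 3 libraries with deposited reads, and the strand used in counting is not given in the sources used here.

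Timp2 blocks MMPs and also takes part in the activation of MMP2 at the cell surface. Timp2 (ENSMUSG00000017466, chr11:118301069-118355740, minus strand) had 887 TPM for WT, 1310 for Cart-miR-23clus KO, 1685 for miR-26a KO and 1582 for miR-26a KO + mimic. As with Timp1, WT was lowest, but here the pair of miR-26a -/- libraries was highest. The ratio to WT was 1.48 (1.41 to 1.54) in Cart-miR-23clus KO and 1.90 (1.82 to 1.98) in miR-26a KO. The mimic library stood at 0.939 (0.905 to 0.973) times miR-26a KO. Timp2 overlaps Cep295nl on the same strand, which had from 3 to 6 reads in the 3 libraries with deposited reads.

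Timp3 is bound to the matrix and inhibits, beside MMPs, the ADAMTS enzymes that cut aggrecan. Timp3 (ENSMUSG00000020044, chr10:86300372-86349506, plus strand) had 3202 TPM for WT, 3327 for Cart-miR-23clus KO, 4543 for miR-26a KO and 3837 for miR-26a KO + mimic. It varied least among the inhibitors, with WT and Cart-miR-23clus KO nearly level. The ratio to WT was 1.04 (1.02 to 1.06) in Cart-miR-23clus KO and 1.42 (1.39 to 1.45) in miR-26a KO, and 0.844 (0.828 to 0.861) after the mimic against miR-26a KO. With 14905 to 20408 reads per library its intervals are narrow, and they do not include variation between cultures. Timp3 lies within Syn3 on the opposite strand, which had 0 reads in the 3 libraries with deposited reads.

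**Figure D3:**
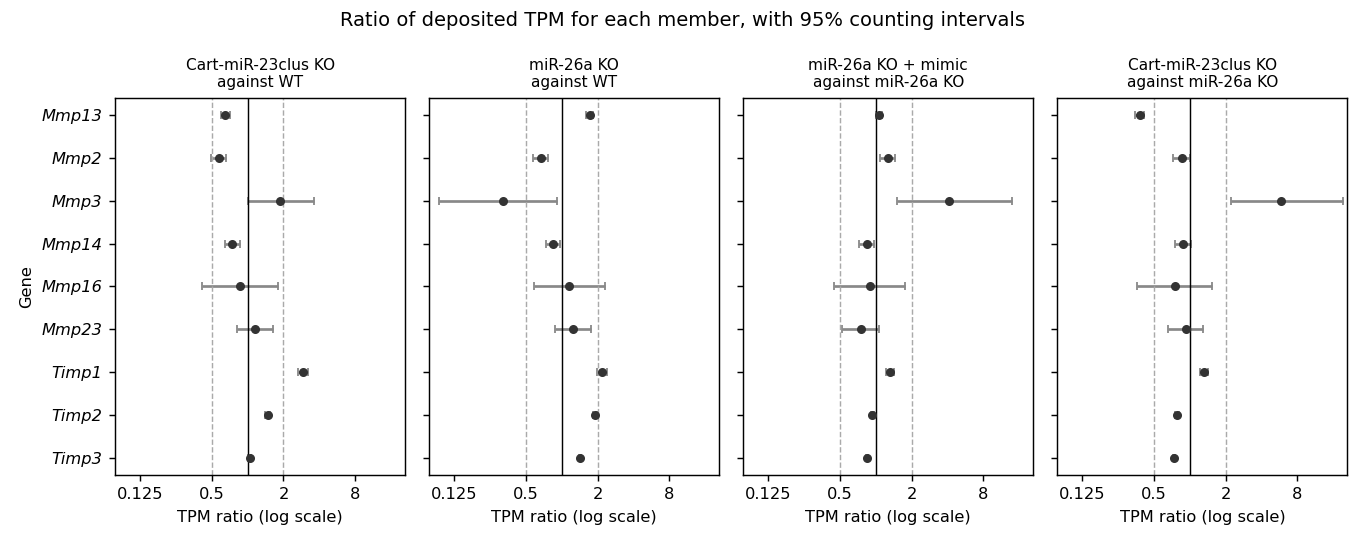
TPM ratios (log axis) of the 9 members with a value in each of the 4 comparisons, with exact 95% intervals on the reads (bars); solid line at 1 and dashed lines at 0.5 and 2. Timp1 lies above 2 against WT in both knockouts (2.89 and 2.18), whereas Mmp13 lies on opposite sides of 1 (0.650 and 1.72).

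In Cart-miR-23clus KO against WT, 1 of the 9 members, Timp1, was above 2 and 0 were below 0.5, beside 10.3% and 8.02% of all 13620 genes. The interval lay above 1 for 3 members, the 3 Timp genes, and below 1 for 3, namely Mmp13, Mmp2 and Mmp14, beside 8.94% and 9.04% of all genes. The median log2 ratio was 0.56 over the Timp genes and -0.32 over the Mmp genes, against 0.02 over all genes. The members with a miR-23 match, Mmp14, Mmp16 and Timp3, had ratios of 0.741, 0.869 and 1.04. Those with a miR-24 match, Mmp16 and Timp2, had 0.869 and 1.48. Intervals exclude 1 more often in well counted genes: among the 1049 genes with 200 reads or more in both libraries, they lay above 1 for 27.1% and below 1 for 26.5%, and 1.72% of these genes were above 2.

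In miR-26a KO against WT, 1 member, Timp1, was above 2 and 1, Mmp3, was below 0.5, beside 8.72% and 7.51% of all 13586 genes. The interval lay above 1 for 4 members (Mmp13 and the 3 Timp genes) and below 1 for 3 (Mmp2, Mmp3 and Mmp14), beside 8.33% and 6.41%. The median log2 ratio was 0.93 over the Timp genes and -0.01 over the Mmp genes, against 0.05 over all genes. Of the 1105 genes with 200 reads or more in both libraries, the interval lay above 1 for 24.4% and below 1 for 21.6%, and 1.09% were above 2. The comparisons with WT share that library, so a value that is low in it by chance gives a high ratio in both.

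In miR-26a KO + mimic against miR-26a KO, 1 member, Mmp3, was above 2 and 0 were below 0.5, beside 5.2% and 7.31% of all 13585 genes. The interval lay above 1 for 4 members (Mmp2, Mmp3, Timp1 and Mmp13, whose lower limit rounds to 1.00) and below 1 for 3 (Mmp14, Timp2 and Timp3), beside 3.84% and 3.8%. The members that carry the miR-26a match, Mmp14 and Mmp16, had ratios of 0.839 and 0.888, and the median log2 ratio of all genes was -0.03. In miR-26a KO against WT the same members stood at 0.848 (0.739 to 0.973) and 1.16 (0.586 to 2.29). The part of the matches in these values was not tested. Mmp16 had 19 and 20 reads, with an interval of 0.448 to 1.75. Mmp23, which holds no match, had 60 and 75 reads and a lower ratio of 0.747 (0.523 to 1.06). For the other members with 200 reads or more in both libraries the ratios ran from 0.844 for Timp3 to 1.31 for Timp1. Of the 1151 genes counted that deeply, 0 were above 2, with intervals above 1 for 11.9% and below 1 for 11.4%.

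In Cart-miR-23clus KO against miR-26a KO, 1 member, Mmp3, was above 2 and 1, Mmp13, was below 0.5, beside 10.1% and 6.57% of all 13595 genes. The interval lay above 1 for Mmp3 and Timp1 and below 1 for Mmp13, Timp2 and Timp3, beside 6.33% and 7.93%. Timp1 was 1.33 (1.23 to 1.44) times higher in Cart-miR-23clus KO, whereas Timp2 was at 0.777 (0.748 to 0.808) and Timp3 at 0.732 (0.717 to 0.748). Among the 1043 genes with at least 200 reads in each of these libraries, 0.863% were below 0.5, and the interval lay above 1 for 20.1% and below 1 for 23.5%.

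The sum of the 3 Timp genes was 4710 TPM for WT, 6434 for Cart-miR-23clus KO, 7582 for miR-26a KO and 7197 for miR-26a KO + mimic. The sum of the 7 Mmp genes was 905, 627, 1197 and 1247 TPM in the same order. Inhibitor mRNA thus exceeded protease mRNA in every library, by 5.20 times for WT, 10.3 times for Cart-miR-23clus KO, 6.33 times for miR-26a KO and 5.77 times for the mimic library. In reads the ratios were 7.85, 13.6, 9.14 and 7.70 in the same order, so Cart-miR-23clus KO was highest on both scales, and WT and the mimic library changed places as the lowest. These ratios within a library do not depend on the scaling between libraries.

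**Figure D4:**
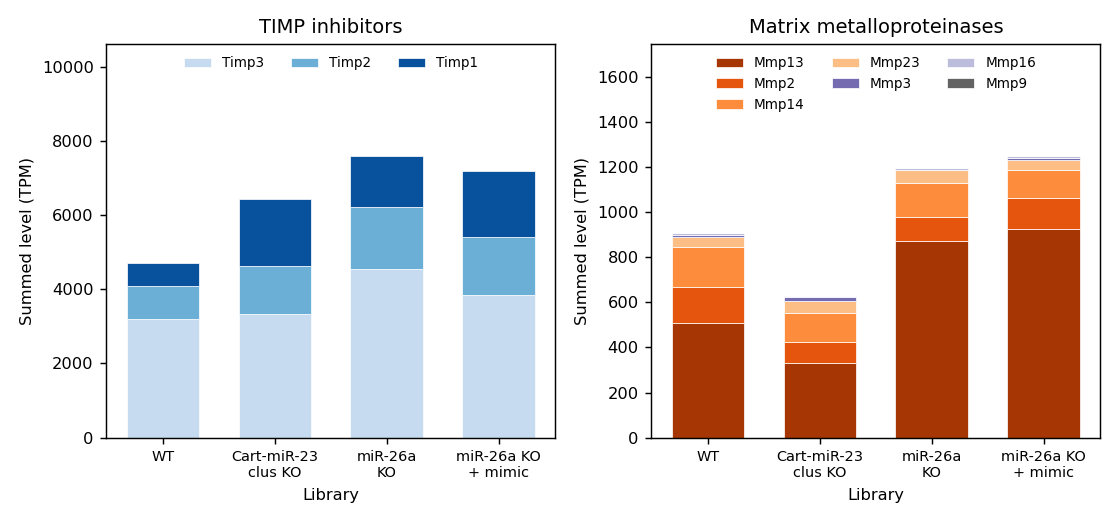
Summed TPM of the Timp genes (left) and of the Mmp genes (right) in each library, stacked by gene from 0. The Timp sum is lowest in WT (4710 TPM) and the Mmp sum is lowest in Cart-miR-23clus KO (627 TPM), where Mmp13 is the largest part of the bar as in the other libraries.

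The make-up of each family also differed. Timp1 gave 2.89% (2.66 to 3.14) of the Timp reads in WT, 7.16% (6.82 to 7.52) in Cart-miR-23clus KO, 4.14% (3.90 to 4.38) in miR-26a KO and 6.15% (5.86 to 6.44) in the mimic library. Mmp13 gave 56.1% (54.1 to 58.1) of the Mmp reads in WT and 54.1% (51.6 to 56.6) in Cart-miR-23clus KO, shares whose intervals overlap. In the miR-26a -/- libraries its share was 73.7% (72.1 to 75.3) and 74.5% (73.0 to 75.9). Mmp13, Mmp2 and Mmp14 were all lower in Cart-miR-23clus KO than in WT, while in miR-26a KO Mmp13 was higher and the other 2 were lower. In TPM, Timp1 stood at 1.23 times Mmp13 in WT, 5.45 times in Cart-miR-23clus KO, 1.55 times in miR-26a KO and 1.92 times in the mimic library. In reads the ratio was 0.405, 1.80, 0.513 and 0.635 in the same order, so Timp1 exceeded Mmp13 on both scales in Cart-miR-23clus KO, and in TPM but not in reads in the other 3 libraries.

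Mmp13 and Mmp3 belong to a cluster of MMP genes on chromosome 9, in which 9 protein-coding Mmp genes lie between 7272514 and 7699585. Mmp13, Mmp3 and Mmp12 (macrophage elastase) had reads in every library. Mmp12 had 3 reads for WT, 7 for Cart-miR-23clus KO, 1 for miR-26a KO and 2 for the mimic library, fewer than Mmp3 in each of them. The other genes of the cluster, Mmp1b, Mmp10, Mmp8, Mmp27, Mmp20 and Mmp7, had at most 0.634 TPM in any library, and Mmp1a, annotated as a polymorphic pseudogene, was at 0 in every library.

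The upstream sequences of Mmp13 and Mmp3 are shown because these neighbours differed in level, by 507 against 9.03 TPM in WT, and in direction between libraries. The 250 bases before the start (RefSeq, GRCm38.p6, plus strand) were searched on both strands for the AP-1 motif TGANTCA, the RUNX motif TGTGGT and the TATA motif TATAAA, and matches are in capitals.
Mmp13, chr9:7272264-7272513: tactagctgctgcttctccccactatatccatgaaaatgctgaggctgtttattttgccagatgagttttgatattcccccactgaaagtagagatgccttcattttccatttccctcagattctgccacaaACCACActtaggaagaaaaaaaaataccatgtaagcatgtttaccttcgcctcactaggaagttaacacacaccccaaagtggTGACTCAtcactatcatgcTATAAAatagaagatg
Mmp3, chr9:7445572-7445821: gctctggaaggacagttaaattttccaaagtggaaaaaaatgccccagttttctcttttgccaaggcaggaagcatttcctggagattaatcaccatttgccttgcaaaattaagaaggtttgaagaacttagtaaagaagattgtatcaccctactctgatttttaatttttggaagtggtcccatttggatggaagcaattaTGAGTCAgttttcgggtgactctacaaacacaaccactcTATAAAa

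Both hold the AP-1 motif, beginning 35 bases before the start in Mmp13 and 46 bases before it in Mmp3, and both hold the TATA motif. The RUNX motif was in the Mmp13 window only, 118 bases before the start, on the minus strand. The motifs do not overlap each other. Of 27025 genes with such windows, 7.82% held the AP-1 motif, 15.9% the RUNX motif and 14.3% the TATA motif. Of the other members with a window, Mmp14 held the RUNX motif, as did 1 of the 2 windows of Mmp23, and those of Timp1, Timp2 and Timp3 held none of the motifs; Mmp2, Mmp9 and Mmp16 had no window.

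Transcription factors that act on MMP promoters were examined as a list of 26 genes, of which 25 had a ratio in each comparison. In Cart-miR-23clus KO against WT, 2 of the 25 were above 2 and 2 below 0.5, near the 10.3% and 8.02% of all genes, with a median log2 ratio of -0.05. Fos, a subunit of AP-1, had 28 reads for WT, 79 for Cart-miR-23clus KO, 53 for miR-26a KO and 45 for the mimic library, and its ratio to WT was 3.11 (2.00 to 4.97) and 2.08 (1.29 to 3.41) in the knockouts. Junb, its partner, was at 2.32 (1.75 to 3.09) in Cart-miR-23clus KO. Sp7, an osteoblast factor, was at 0.335 (0.238 to 0.464) and Mef2c, a factor of hypertrophy, at 0.266 (0.188 to 0.371). In miR-26a KO against WT, Epas1 (HIF-2α) was at 2.09 (1.32 to 3.36) and Mef2c at 0.472 (0.359 to 0.617). After the mimic, 0 of the 25 were past 2-fold against miR-26a KO, where 5.2% of all genes were above 2 and 7.31% below 0.5.

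Of 28 genes that activate, inhibit or clear MMPs, 21 had a ratio in Cart-miR-23clus KO against WT. Those above 2 included Serpine2 and Plau (2 and 5 reads), and those below 0.5 were Reck, Pcsk5 (7 and 3 reads) and Htra1, beside 10.3% and 8.02% of all genes. Serpine2, a secreted inhibitor of serine proteases, had 855 reads for WT, 2001 for Cart-miR-23clus KO, 2084 for miR-26a KO and 1895 for the mimic library. Its ratio to WT was 2.58 (2.38 to 2.79) and 2.68 (2.47 to 2.90) in the knockouts. Reck, a membrane-anchored inhibitor of MMPs, had 57 reads for WT, 19 for Cart-miR-23clus KO, 35 for miR-26a KO and 32 for the mimic library, with a ratio of 0.367 (0.206 to 0.626) in Cart-miR-23clus KO. So the soluble inhibitors Timp1 and Serpine2 were higher in both knockouts than in WT, and Reck was below 0.5 in Cart-miR-23clus KO. Htra1, a secreted serine protease, had 261 reads in WT and 85 in Cart-miR-23clus KO, with a ratio of 0.359 (0.277 to 0.460), and it was at 1.27 (1.08 to 1.51) in miR-26a KO. In miR-26a KO against WT, genes above 2 included Serpine2, Cd44 and Plau, and 1 of 22, Pcsk5, was below 0.5, beside 7.51% of all genes. Cd44, which can hold MMP9 at the cell surface, was at 2.02 (1.49 to 2.76).

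Of 18 cytokines and receptors that act on MMP genes, 13 had a ratio in Cart-miR-23clus KO against WT, with 3 above 2 (Il1rn, Il1r1 and Il6ra) and 0 below 0.5, and a median log2 ratio of 0.54, beside 10.3%, 8.02% and a median of 0.02 for all genes. Il1r1 and Il6ra had at most 14 reads and intervals that include 1. Il1rn, the antagonist of the IL-1 receptor, had 23 reads for WT, 94 for Cart-miR-23clus KO, 48 for miR-26a KO and 34 for the mimic library. Its ratio to WT was 4.50 (2.83 to 7.44) in Cart-miR-23clus KO and 2.29 (1.37 to 3.95) in miR-26a KO. In the latter comparison 2 of 13 genes, Il1rn and Fgf2, were above 2 and 0 below 0.5, with a median of 0.36, beside 8.72%, 7.51% and a median of 0.05 for all genes. After the mimic, 0 of 12 were above 2 and 1, Il1r1 (6 and 2 reads), was below 0.5 against miR-26a KO, beside 5.2% and 7.31%. Of 12 matrix proteins that MMPs cut, 1 was above 2 and 2, the type I collagen chains Col1a1 and Col1a2, were below 0.5 in Cart-miR-23clus KO against WT, beside 10.3% and 8.02% of all genes and 1.72% and 1.24% of those with 200 reads or more. In miR-26a KO against WT the numbers were 0 and 1, beside 8.72% and 7.51% of all genes and 1.09% and 1.09% of those with 200 reads or more. Spp1 (osteopontin) was at 2.09 (1.94 to 2.24) in Cart-miR-23clus KO, and Col1a1 was at 0.207 (0.202 to 0.212) there and at 0.425 (0.417 to 0.433) in miR-26a KO.

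Of the 17 Mmp and Timp genes outside the members, 8 were at 0 TPM in every library. Mmp11 (21 to 29 reads per library) and Mmp19 (45 to 62 reads) were the most abundant of the others. In Cart-miR-23clus KO against WT 5 of the 17 had a ratio, of which Mmp12 and Timp4, with at most 7 reads, were above 2 and 0 were below 0.5, beside 10.3% and 8.02% of all genes. For all of the 17 genes that had a ratio, in each of the 4 comparisons, the interval included 1.

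Markers of other cells moved with some members. The 5 markers of hypertrophic chondrocytes, in which Mmp13 is normally made, summed to 1427 TPM for WT, 375 for Cart-miR-23clus KO, 776 for miR-26a KO and 1082 for the mimic library, all 5 having reads in every library. Within them Col10a1, the collagen of hypertrophic cartilage, differed from the sum, with 105 reads for WT, 148 for Cart-miR-23clus KO, 82 for miR-26a KO and 121 for the mimic library. The 7 osteoblast markers summed to 11697, 2206, 5825 and 6488 TPM, with 6, 4, 6 and 6 of them above 0, and Ifitm5 and Dmp1 at 0 in Cart-miR-23clus KO. Mmp13 was thus low together with these markers in Cart-miR-23clus KO, but higher than WT in miR-26a KO, where both sums were lower. Mmp2, with 162 TPM for WT, 92.8 for Cart-miR-23clus KO, 108 for miR-26a KO and 136 for the mimic library, had the order of both sums. The part of these markers in the Mmp13 and Mmp2 values was not tested.

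**Figure D5:**
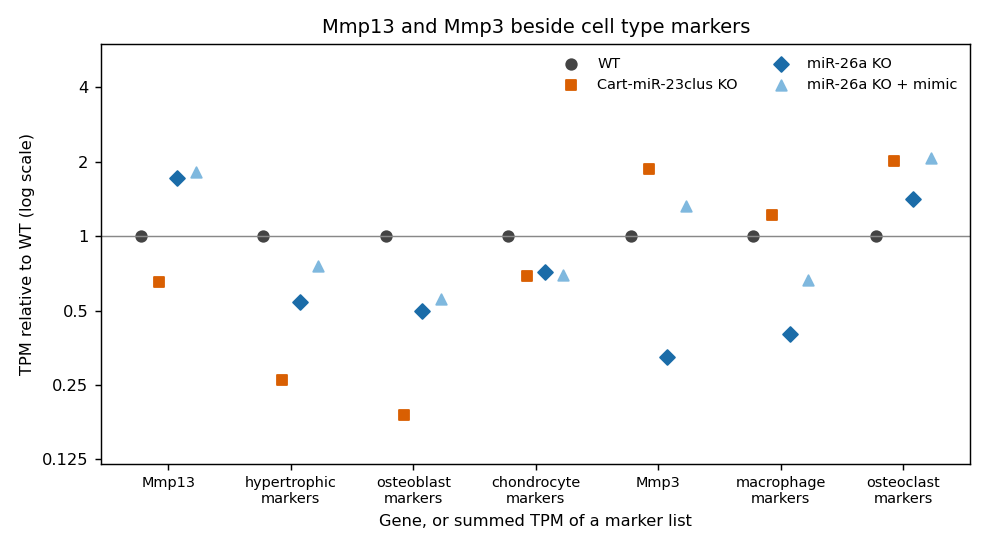
TPM of Mmp13, of Mmp3 and of summed marker lists in each library, relative to WT (log axis, WT at 1). Mmp13 is below 1 in Cart-miR-23clus KO and above 1 in the miR-26a -/- libraries, whereas the hypertrophic and osteoblast markers are below 1 in all 3; Mmp3 and the macrophage markers are both lowest in miR-26a KO.

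The 8 macrophage markers summed to 880 TPM for WT, 1075 for Cart-miR-23clus KO, 353 for miR-26a KO and 583 for the mimic library, with 8, 8, 7 and 8 of them above 0. Adgre1, which encodes F4/80, had 20, 36, 2 and 16 reads and C1qa had 77, 70, 19 and 24. The library with the fewest Mmp3 reads was therefore also the one with the lowest macrophage sum, and the part of macrophages in the Mmp3 values was not tested. The 7 osteoclast markers summed to 124, 251, 176 and 257 TPM, mostly from Ctsk, and Calcr was at 0 in every library. This sum was lowest in WT, as were Ctsk, Acp5 (4 to 26 reads) and Atp6v0d2 (1 to 14 reads), and as Timp1 was. Oscar, Dcstamp and Ocstamp had at most 3 reads in any library. The part of the osteoclast markers in the Timp1 values was not tested. The fibroblast list ran from 563 to 832 TPM. Its members Prg4 (65.3, 141, 219 and 253 TPM), Thy1 (3.31, 6.07, 12.1 and 11.9 TPM) and Pdpn (68.5, 124.7, 105 and 94.6 TPM) were lowest in WT, as was Cd34 and as the 3 Timp genes were, whereas Col3a1 and Dpt were highest there, and their part in the Timp values was not tested. The mural list ran from 180 to 328 TPM, and the endothelial list was at most 2.15 TPM.

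The genes whose pattern over the 4 libraries was most like that of a member were sought among 2067 genes with at least 100 reads in every library, by the root mean square difference of centred log2(TPM + 0.5). Nearest to Mmp13 were Tnc (0.18), Tmem45a (0.22) and S100a10 (0.24). Nearest to Timp1 were Lgals3 (0.18), Gpnmb (0.21) and Gpx3 (0.23). Nearest to Timp3 were Txndc12 (0.02), Atf5 (0.03) and Dnaja2 (0.04). Nearest to Mmp3 were Apoe (0.49), Lyz2 (0.52) and Lpl (0.59), at a larger distance than the nearest genes of the other 3 members searched. Lyz2, a lysozyme of myeloid cells, had 518 TPM for WT, 507 for Cart-miR-23clus KO, 177 for miR-26a KO and 296 for the mimic library. With 4 libraries, such likeness is a description only.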

How the data were processed

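RNA from cultured articular chondrocytes was measured in 4 libraries, 1 per condition. The authors prepared QuantSeq 3′ mRNA libraries (FWD), sequenced single-end reads of 75 bases and mapped them to mm10 without quality filtering; the aligner, counter, counting strand and annotation are not given in the sources used here. The deposited estimated counts are whole reads per gene for 3 libraries, over 55450 genes, and rows of alignment totals were left out. The deposited TPM values cover 55141 genes in all 4 libraries, the authors having divided reads by 1 length per gene. For the mimic library, reads were inferred here from the spacing of the TPM values. Of 14425 values tested, 14425 were whole within 0.02 reads, and 588 genes were not recovered.

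TPM ratios were formed for genes above 0 in each of the libraries compared, and a call was a ratio above 2 or below 0.5. Clopper-Pearson intervals used the TPM scaling as offset and were tested on simulated data. All members were reported. Other genes came from lists, and within a list those past 2-fold with an interval that excludes 1, at most 4 per comparison; not all of them are reported here, and Mmp11, Mmp12, Mmp19, the marker genes and the list genes with intervals that include 1 were named after their values were seen. Members and lists were chosen with earlier results of these data known. Seed matches were read from GENCODE M21 transcripts, and miRNAs and promoters from RefSeq. Scaling by CPM, by TMM (edgeR) and by size factors (DESeq2), pseudocounts of 0.1 and 1 TPM, read filters of 10 together and 20 each, a fold of 1.5 and intervals of 99% were tried. Tools were edgeR 4.0.16 and DESeq2 1.42.0 under R 4.3.3, and scipy 1.17.1, pandas 2.3.3, numpy 2.4.6 and matplotlib 3.10.9 under Python 3.11.15.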

Additional observations from a re-analysis of the deposited data

Results flagged for a closer look

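Mmp13 differed between the knockouts in its direction against the same WT library. Its TPM ratio to WT was 0.650 (0.596 to 0.709) in Cart-miR-23clus KO and 1.72 (1.61 to 1.84) in miR-26a KO, both intervals excluding 1. With 1 library per condition this difference between the knockouts was not tested against variation between cultures. The study measured MMP13 protein with replicates in Control and Cart-miR-23clus KO, by immunoblots of chondrocytes and by staining of knee joints. It reported no significant difference in this protein between them. Mmp3, with few reads, had ratios of 1.88 and 0.323 in the opposite order, the first with an interval of 0.998 to 3.64 that includes 1 in TPM and excludes it under CPM, TMM and DESeq2 scaling.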

How the results depend on the processing

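No paired analysis was possible because no condition has a second library. The number of members past the fold depended on the threshold and on genes with few reads. With a fold of 1.5 it was 4 in Cart-miR-23clus KO against WT and 4 in miR-26a KO against WT, in place of 1 and 2. With at least 20 reads in each library Mmp3 is no longer compared, and the number was 1 in miR-26a KO against WT, 0 after the mimic against miR-26a KO and 1 in Cart-miR-23clus KO against miR-26a KO. Pseudocounts of 0.1 and 1 TPM gave 2 after the mimic against miR-26a KO, and 3 in place of 2 in miR-26a KO against WT and in Cart-miR-23clus KO against miR-26a KO, since they bring in the 1 read of Mmp9. The number of members with an interval excluding 1 stayed within 1.5 times under every alternative run. It was 7 in place of 6 in Cart-miR-23clus KO against WT with CPM, TMM or DESeq2 scaling, Mmp3 being added, and 5 in place of 7 at 99% in miR-26a KO against WT and in the mimic comparison. Of 180 ratios of single members under the alternatives, 175 stayed within their interval and 5, all of Timp3, did not; none changed direction. Another scaling moved all ratios by at most 0.05 on the log2 scale. Variation between cultures is not covered by any of these values.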
